A study of Danio rerio with 26 samples.

Results

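Transcript levels in the liver were compared between zebrafish (Danio rerio) withdrawn from chronic ethanol and zebrafish examined under ethanol, with sex as a covariate. The comparison used 8 of the 26 libraries of the series, 2 each from alcohol-exposed males, alcohol-exposed females, withdrawal males and withdrawal females. The liver table lists 57918 transcripts in TPM, the abundance of a transcript relative to all transcripts of its library. Tested were 19828 transcripts that reached 1 TPM in 2 or more of the 8, and 12038 were listed at 0 in all 8.

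All fish were of the short fin AB strain. Per the labels' protocols, exposed fish lived in 0.5% ethanol for 9 weeks, with a transfer to a fresh tank each day, and males and females were kept apart, with 30 fish to a 20-L tank, except when they were bred from the fifth week on. The protocols describe control and alcohol-exposed tanks. The sources used here give neither the age of the fish nor the number of withdrawal fish nor the time they spent without ethanol. By its title, the study is about how far the transcriptome of each tissue recovers once chronic exposure ends. Tissue was pooled within groups, and nothing says that the 2 libraries of a group came from separate fish. The replicate spread behind the p-values is thus that between 2 pooled libraries and may be technical only. In the sex-adjusted fit the residual also holds effects that differ between the sexes. The labels give no batch, so condition and library preparation cannot be told apart.

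The liver is the main site at which vertebrates oxidise ethanol, first to acetaldehyde by alcohol dehydrogenases and then to acetate by aldehyde dehydrogenases. Long exposure is known to alter hepatic lipid handling, redox balance and the secretion of plasma proteins. In egg-laying fish the liver of mature females also makes the yolk precursor vitellogenin under the control of estrogen, which sets female and male livers apart. The files list Ensembl transcript identifiers without gene names, and the reference tables used here pair names with genes, not with transcripts. The transcripts below are therefore given by identifier or by rank, the liver label could not be checked against marker genes, and no pathway list was counted.

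The 4 groups were separated by sex, by condition and by a combination of the 2. Of the total sum of squares of log2(TPM + 1) over the 8 libraries, 39.5% lay between the sexes, 27.5% between withdrawal and alcohol, 21.4% in the part of the condition difference that was not shared by the sexes, and 11.5% between replicates. The first principal component, with 44.2% of the variance, placed the withdrawal males at −117.8 and −91.4, the alcohol males at −23.5 and −1.32, and all 4 female libraries between 49.6 and 66.9. The component that followed carried 26.4% and placed the alcohol males at 68.9 and 96.9, the alcohol females at 0.94 and 3.55, and the withdrawal libraries of both sexes between −53.5 and −24.5. Withdrawal libraries lay below alcohol libraries of the same sex on both components, with a longer step in males. On the component after these, with 19.1%, females took the longer step and in the opposite direction, from −62.2 and −64.8 under alcohol to 50.5 and 54.6 after withdrawal, while males went from 27.4 and 29.0 to −23.6 and −10.8.

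**Figure D1:**
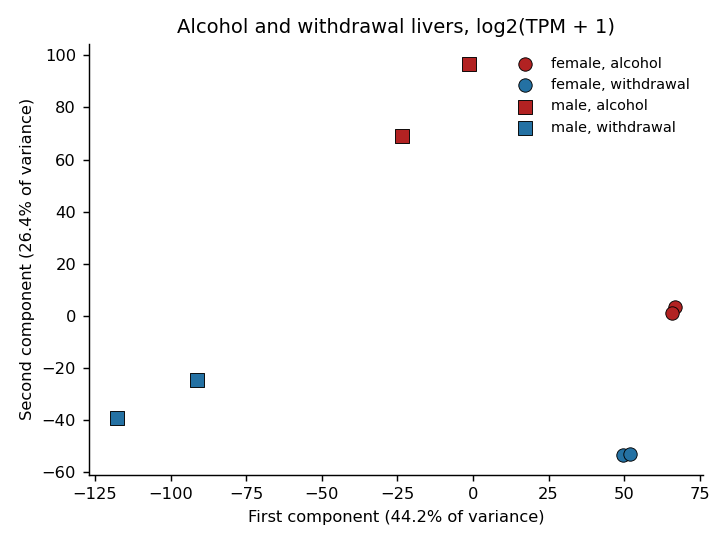
Position of the 8 liver libraries on the first and second principal components of log2(TPM + 1) over 19828 transcripts, with squares for males, circles for females, red for alcohol and blue for withdrawal. The 2 male alcohol libraries lie farther from each other than the 2 libraries of either female group.

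Replicates were closer in females than in males. The median absolute log2 difference between the 2 libraries of a group was 0.12 in alcohol females, 0.14 in withdrawal females, 0.21 in withdrawal males and 0.29 in alcohol males. Between conditions of the same sex it ran from 0.46 to 0.48 over the 4 female pairings and from 0.46 to 0.71 over the 4 male pairings. Each between-condition distance was thus larger than either replicate distance of its sex. Male alcohol replicate 1 lay nearer to the withdrawal males (Pearson r across transcripts of 0.834 and 0.878) than replicate 2 did (0.773 and 0.823).

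Adjusted for sex, withdrawal livers differed from alcohol livers in 2951 transcripts, 14.9% of those tested, by limma with Benjamini-Hochberg adjustment at 0.05. Of these, 1531 were higher after withdrawal and 1420 were lower (7.72% and 7.16% of the tested transcripts), and 722 and 747 of the tested transcripts were called with a change of at least 2-fold (3.64% and 3.77%). The median log2 difference of all tested transcripts was 0.01. Among the transcripts that rose the median log2 difference was 0.98, and 80% of them lay between 0.61 and 1.77. Among those that fell the median was −1.04, with 80% between −2.09 and −0.64. The median standard error of a called difference was 0.19. In bulk tissue, fewer cells of a type and less RNA per cell cannot be told apart. The male and female effects had the same sign for all 2951, and the 2 estimates were within 1 log2 unit of each other for 81.1% of them. A single term for sex puts a difference between the sexes into the residual, so calls with opposite signs were all but excluded beforehand. The sign count and the closeness are therefore no evidence that the sexes agree.

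The count of sex-adjusted calls depended on how sex was modelled. With a single term for sex, effects that differ between the sexes enter the residual, whose median standard deviation was 0.34 against 0.21 with 4 separate group means. The average of the male and female effects from the group means, which has the same estimates, was called for 8810 transcripts, and all 2951 calls were among them.

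The largest rise by the naming rule was that of ENSDART00000129772.2. It stood at 7.22 and 1.38 TPM in alcohol males and at 0.49 and 0.40 TPM in alcohol females, against 725 and 560 TPM in withdrawal males and 635 and 623 TPM in withdrawal females. All 4 withdrawal livers were at nearly the same high level, far from all 4 alcohol livers. The log2 difference was 7.97 (SE 0.46, limma adjusted p = 0.00102), and the rise in females exceeded that in males by 1.60 (SE 0.75), which did not pass the test (adjusted p = 0.14). Control livers were split by sex, at 0.41 and 0.23 TPM in males and at 64.4 and 68.9 TPM in females. Withdrawal females thus lay above the control females, and withdrawal males stood at a level found in no control male.

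The next in rank, ENSDART00000133453.2, was listed at 0 in 3 of 4 alcohol livers and in all 4 control livers, with 7.46 TPM in male alcohol replicate 1. After withdrawal it reached 258 and 106 TPM in males and 11.0 and 3.50 TPM in females (log2 difference 4.36, SE 0.87, adjusted p = 0.0208). With most alcohol values listed at 0 that size rests on the pseudocount of 1 TPM, and it was 6.78 at a pseudocount of 0.1 and 2.83 at 5. The high values were those of the males, and within females alone the rise did not pass the test (adjusted p = 0.0817). The sex-adjusted call ended without male withdrawal replicate 1 or 2 (adjusted p = 0.0531 and 0.0612) and without female withdrawal replicate 1 (0.0564).

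Among the falling transcripts ENSDART00000162266.1 ranked first. It stood at 225 and 352 TPM in alcohol males and 66.2 and 55.7 TPM in alcohol females, and at 2.82 and 5.26 TPM in withdrawal males and 4.47 and 2.65 TPM in withdrawal females. The withdrawal livers of both sexes reached similar low levels from different starting levels. The fall was 4.82 log2 units (difference −4.82, SE 0.45, adjusted p = 0.00369), and it was larger in males than in females by 2.07 (SE 0.48, adjusted p = 0.0201 for the difference between sexes). Control livers were at 655 and 457 TPM in males and 407 and 183 TPM in females, so the level after withdrawal lay below every control and every alcohol library.

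ENSDART00000111240.4 was the next lower transcript and was listed at 0 in all 4 withdrawal livers. Under alcohol it stood at 9.73 and 24.99 TPM in males and 34.4 and 37.5 TPM in females (adjusted p = 0.00176). Male control replicate 2 was also listed at 0, while the other 3 control livers had 4.78 to 21.4 TPM. A listed 0 may also be a failed estimate, so no fold is given. In the brain the same transcript stood at 26.8 to 30.3 TPM in the 4 alcohol libraries, at 43.8 and 65.8 TPM in withdrawal females, and at 0, 0.84 and 0 TPM in withdrawal males. The brain difference over both sexes did not pass the test (adjusted p = 0.116).

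**Figure D2:**
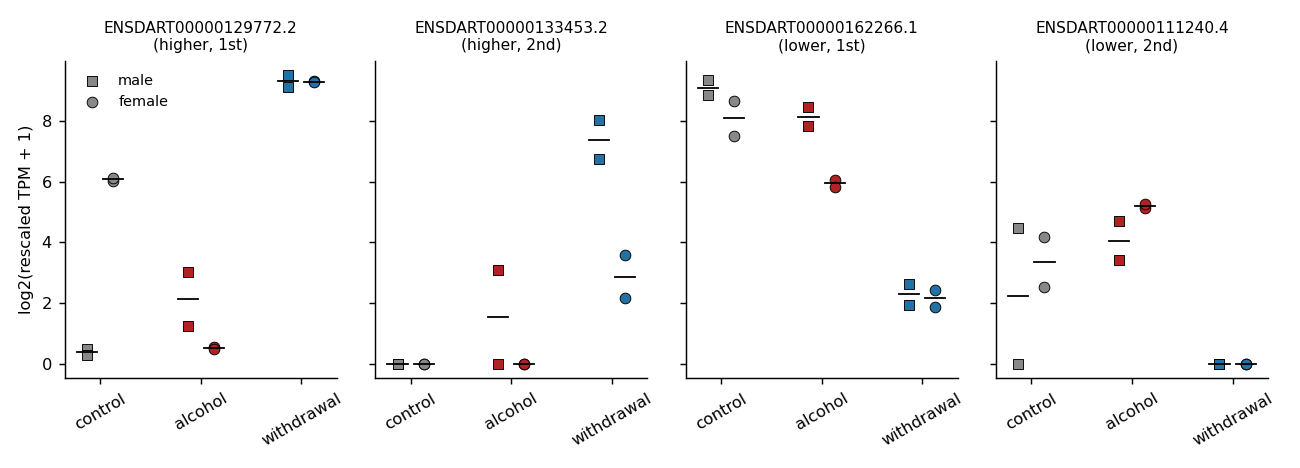
Level of the 2 largest rises and 2 largest falls as log2(rescaled TPM + 1) in each of the 12 liver libraries, with squares for males, circles for females and a line for the mean of 2 libraries. The first transcript is above 9 in all 4 withdrawal livers and the last is at 0 in all of them.

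The rule behind these 4 transcripts asked for an adjusted p below 0.05, a mean of at least 10 TPM, and no overlap between withdrawal and alcohol libraries in either sex, and 508 higher and 418 lower transcripts met it. The 12 largest of each direction were all called within males as well, and 8 of the 12 rises and 12 of the 12 falls within females. The rule and the ranking favour such calls, so these counts are no added evidence. Over all tested transcripts 42.3% were called in males and 30.4% in females. The rises were mostly larger in males, in 11 of 12, with the sex difference called for 4. Of the falls, 5 were larger in males, and the sex difference was called for 7. The sex difference was called for 20.3% of the sex-adjusted calls and 36.2% of all tested transcripts. A lower share among these calls was favoured beforehand, since such differences enter the residual of that fit, so it is no evidence that the sexes agree. In 58.6% of the sex-adjusted calls the male effect was the larger one. The same share over all tested transcripts was not taken, and their median absolute effect was 0.55 in males and 0.44 in females. The share is therefore not a trait of these calls. Of the 12 falls, 3 were listed at 0 in both withdrawal females but not in withdrawal males. One of these stood at 91.2 and 86.9 TPM in alcohol females, 138 and 133 TPM in alcohol males, and 18.01 and 21.6 TPM in withdrawal males. Of the 12 rises, 3 were at most at 1 TPM in every control liver.

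Control livers took different positions beside these changes. One fall went in males from 146 and 116 TPM under alcohol to 13.3 and 8.15 TPM, of which the first lay between the 13.9 and 12.8 TPM of the control males and the other below both (log2 difference over both sexes −3.71, SE 0.21, adjusted p = 0.00102). In females it went from 35.3 and 42.4 TPM to 1.29 and 2.104 TPM, below the 4.33 and 4.32 TPM of the controls. A more abundant fall ended below every control liver in both sexes, and went from 619 and 1429 TPM to 51.2 and 53.0 TPM in males and from 391 and 364 TPM to 37.3 and 35.8 TPM in females, with 381 to 1100.2 TPM in controls (log2 difference −3.74, SE 0.30, adjusted p = 0.00231). The remaining example was a rise above controls in both sexes, from 1.39 and 0.73 TPM to 21.0 and 22.8 TPM in males and from 5.37 and 4.78 TPM to 37.8 and 42.5 TPM in females, with 0.12 to 8.49 TPM in controls (log2 difference 3.13, SE 0.20, adjusted p = 0.00149).

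Abundant transcripts contributed more falls than rises. Among 186 transcripts with a mean over 1000 TPM, 24 fell and 6 rose in the sex-adjusted fit, with a median log2 difference of −0.22. In the class of 100 to 1000 TPM, 83 of 576 fell and 31 rose (median −0.15). Less abundant transcripts moved the other way in this fit. At 20 to 100 TPM 233 of 1742 rose and 172 fell (median 0.11). At 5 to 20 TPM 558 of 4303 rose and 335 fell (median 0.13). The rises at 20 to 100 TPM exceeded the falls in males (652 and 435) but not in females (342 and 395). The female order depended on the scaling. It turned to 404 rises and 317 falls without rescaling, 406 and 398 with quantile normalisation, and 369 and 360 with factors from all 12 livers. The median change of a class was also taken for each withdrawal library against the alcohol mean of its sex. Over the 4 libraries its standard deviation was 0.44 above 1000 TPM and 0.17 at 20 to 100 TPM, larger than the medians given here. It was 0.14 at 100 to 1000 TPM and 0.09 at 5 to 20 TPM. Below 5 TPM 703 rose and 806 fell of 13021, an order that turned to 726 and 671 with quantile normalisation and to 775 and 716 with factors from all 12 livers. Transcripts above 1000 TPM together held 62.2% and 64.7% of TPM in alcohol males, 64.5% and 65.5% in withdrawal males, 71.7% and 72.1% in alcohol females and 72.0% and 72.4% in withdrawal females.

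In females the falls among abundant transcripts outnumbered the rises. Above 1000 TPM, 80 transcripts fell and 14 rose in females (median −0.62), whereas 44 fell and 45 rose in males (median 0.17). The classes rest on the mean over both sexes, so the male counts include transcripts with low levels in males. One of the male rises went from 0.0753 and 0.327 TPM to 23.3 and 21.6 TPM. The difference between the sexes was itself called for 55.4% of the 186, with 77 changes more negative in females and 26 more positive, against 36.2% of all tested transcripts, with 4115 and 3065. That share was not particular to this class, at 54.3% for 100 to 1000 TPM and 50.3% for 20 to 100 TPM. At 100 to 1000 TPM the counts were 176 falls and 65 rises in females and 183 and 174 in males. Without rescaling the class above 1000 TPM had 73 falls and 14 rises in females. Quantile normalisation forces every library to one distribution and cannot show a shift of a whole class, and under it the class had 22 falls and 21 rises in females, and 5 falls and 8 rises in the sex-adjusted fit (median 0.01).

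**Figure D3:**
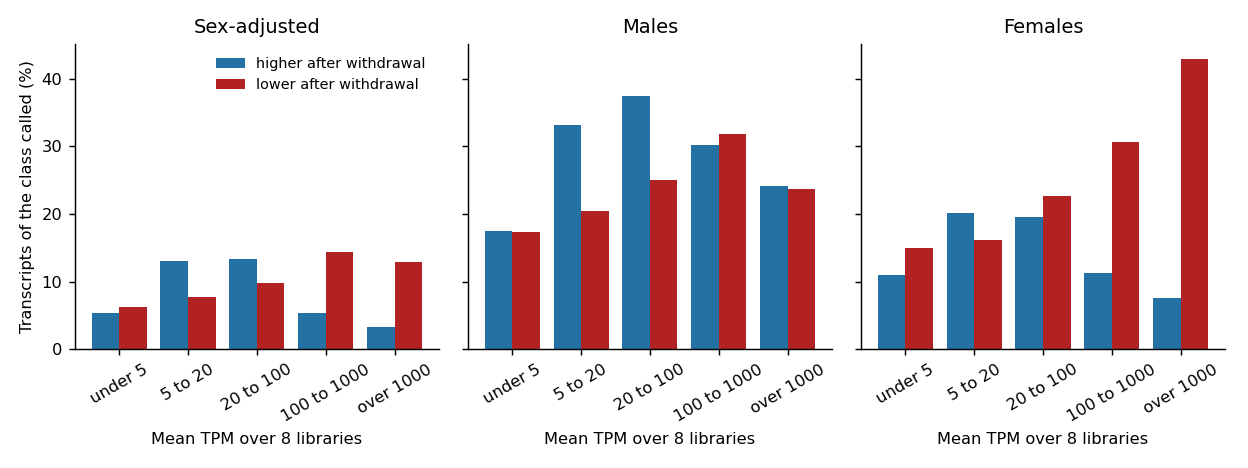
Percentage of transcripts called higher (blue) or lower (red) after withdrawal in 5 classes of mean TPM over the 8 libraries, for the sex-adjusted fit, for males and for females. In females the lower bars grow with abundance, up to 43.0% above 1000 TPM, while in males the 2 bars of that class are 24.2% and 23.7%.

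The 30 transcripts above 1000 TPM that met the naming rule included 6 rises and 24 falls. The largest of these rises was at most at 3.23 TPM in every male library, so its place in the class rests on females. One fall stood at 8709.7 and 9174 TPM in alcohol males and 4964 and 4804 TPM in alcohol females, and at 5309 and 4599.6 TPM in withdrawal males and 2213 and 2166 TPM in withdrawal females (log2 difference −1.01, SE 0.13, adjusted p = 0.00684). Male levels were above female levels in both conditions, and the difference between the sexes in the fall did not pass the test (adjusted p = 0.188). Another went from 3852 and 3717 TPM to 1853 and 2199.97 TPM in males and from 1307 and 1187 TPM to 449 and 456 TPM in females (log2 difference −1.18, SE 0.16, adjusted p = 0.00785). Withdrawal livers of each sex lay below both controls of that sex, which stood at 3201 and 2709 TPM in males and 1976 and 1656 TPM in females.

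The effect of withdrawal differed between male and female livers for many transcripts. With a mean for each group, limma called 8379 transcripts in males, 42.3% of those tested, with 4570 higher and 3809 lower, and 6026 in females (30.4%), with 2724 higher and 3302 lower. The male and female effects share no library, and across the 19828 transcripts they correlated weakly (Pearson r = 0.134, given as a description, since transcripts are not independent replicates). Both sexes called 930 transcripts higher and 806 lower. Another 922 were called in opposite directions, 530 higher in males and lower in females and 392 the reverse. These opposite calls were 11.0% of the male calls and 15.3% of the female calls. The 1736 calls in the same direction were 20.7% and 28.8%. How many of each kind unrelated lists would share was not taken, so the 922 alone do not show that the sexes diverge. The difference between the sexes was itself called for 7180 transcripts (36.2%), with 3065 changes more positive in females and 4115 more positive in males. Which sign was more frequent depended on the scaling, since without rescaling the counts were 3670 and 3333 for the difference, 3913 higher and 4070 lower in males, and 3169 higher and 2735 lower in females, and quantile normalisation turned the same 3 majorities. The median difference between the sexes (female minus male) over all transcripts was −0.08 with the rescaling used, 0.10 without rescaling and 0.06 after quantile normalisation.

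**Figure D4:**
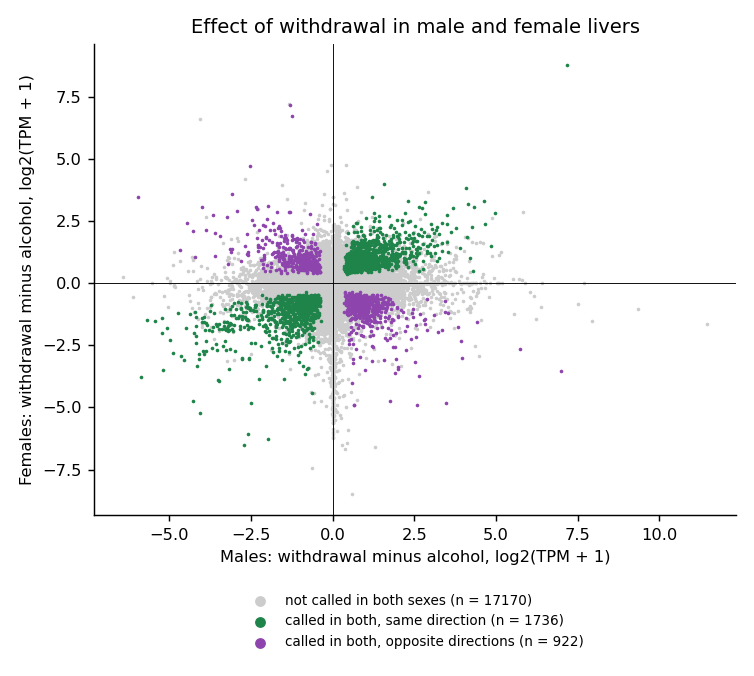
Log2 difference between withdrawal and alcohol livers in males (x axis) and females (y axis), on the log2(TPM + 1) scale, with one point for each of 19828 transcripts. Green points (1736) were called in both sexes in the same direction and purple points (922) in both sexes in opposite directions.

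Of the 7180 called differences between the sexes, 46.5% were transcripts called in males alone, 30.6% in females alone, 12.8% called in both in opposite directions and 4.87% called in both in the same direction to an unequal extent. The rest were called in neither sex. For 2379 transcripts called in males alone and 1169 called in females alone, the difference between sexes did not pass the test. Withdrawal and alcohol libraries did not overlap in both sexes, with the same direction, for 30.3% of the transcripts, and with opposite directions for 22.5%.

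The numbers called in the 2 sexes do not compare the sizes of the effects. The median standard deviation between replicates was 0.23 in males and 0.12 in females on the log2 scale, and both were tested against a spread shared by the 8 libraries. With only male libraries in the fit 2555 transcripts were called, and with only female libraries 8433. The median absolute effect was 0.55 in males and 0.44 in females.

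The transcript with the largest difference on the male side of those with a mean of at least 10 TPM became one of the abundant transcripts of the male liver after withdrawal. It stood at 7009.7 and 3203 TPM in withdrawal males, at 1.80 TPM and a listed 0 in alcohol males, and at 4.42 and 9.44 TPM in control males (log2 difference in males 11.47, SE 0.62, adjusted p = 0.000406). Alcohol females had 3.52 and 1.18 TPM and withdrawal females were listed at 0, while the female controls disagreed, at 630 and 1.60 TPM. Another transcript went from a listed 0 in both alcohol males to 918 and 454 TPM in withdrawal males, with at most 2.66 TPM in the alcohol and withdrawal females and 15.7 TPM in female control replicate 1. In the other direction, a transcript with 38.0 and 96.3 TPM in alcohol males was listed at 0 in withdrawal males, and rose in females from 0.0211 and 8.22 TPM to 26.96 and 40.4 TPM (adjusted p = 0.00507 for the difference between sexes).

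Transcripts listed at 0 in one condition and at 5 TPM or more in the other were counted over both sexes and within each. The rule over both sexes asks for 4 libraries on each side and the rule within a sex for 2. The 2 kinds of count therefore cannot be compared. Over both sexes, none was listed at 0 in all 4 alcohol livers and at 5 TPM or more in all 4 withdrawal livers, and 2 showed the reverse. Within males, 76 were listed at 0 in both alcohol libraries and reached at least 5 TPM in both withdrawal libraries, and 28 showed the reverse. Within females the counts were 13 and 52. Of the 76 transcripts gained by withdrawal males, 4 to 11 were at 5 TPM or more in each control, alcohol female or withdrawal female library. In each of these libraries 45 to 61 of them were listed at 0. Together the 76 held 0.27% and 0.17% of TPM in withdrawal males. One of them was listed at 0 in 10 of the 12 livers and stood at 243 and 176 TPM in the withdrawal males. The 52 transcripts lost by withdrawal females were more widespread, with 27 and 28 of them at 5 TPM or more in the control females and 13 to 18 in each male library.

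A set of very abundant transcripts was all but limited to females. Transcripts were picked by a mean of at least 100 TPM in the 4 female libraries and no male library above 1% of that mean, and 29 met this. Of these, 23 were at that floor in both conditions, 4 under alcohol only and 2 after withdrawal only. For members at the floor in a single condition the direction was partly fixed by the rule, so the directions over all 29 are a description. Their summed share of TPM was 17.6% and 17.9% in alcohol females and 30.8% and 30.9% in withdrawal females, against 14.7% and 28.3% in control females. The withdrawal share lay above that of every other female liver, and the control libraries themselves spread more widely than the alcohol and withdrawal libraries did. That control spread rests largely on 1 member, at 25352 and 190316 TPM in the control females. This member was called lower in females, from 17131 and 18160 TPM under alcohol to 5494 and 6661 TPM after withdrawal. With 2 libraries a group no exact test of the summed share could reach 0.05, and none was run. Single members went both ways. Of all 29, 12 were called higher in females, 8 lower, and 9 did not pass the test, and the median log2 difference was 0.26. In females 30.4% of all tested transcripts were called, but 41.8% of those with a mean of 100 to 1000 TPM and 50.5% of those above 1000 TPM. Of the 10 most abundant, 6 were called higher in females, 2 lower, and 2 did not pass the test. Those 2 include one that stood at 16748 and 16763 TPM in alcohol females and 33021 and 32762 TPM in withdrawal females (log2 difference 0.97, SE 0.52, adjusted p = 0.206). That standard error is shared by both sexes. The spread within the male pairs of this transcript enters it, at 29.2 and 10.6 TPM under alcohol and 2.88 and 7.65 TPM after withdrawal.

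The most abundant transcript of all 8 libraries belonged to this set, with 92305 and 89344 TPM in alcohol females and 129531 and 125254 TPM in withdrawal females (log2 difference in females 0.49, SE 0.13, adjusted p = 0.0356). The female libraries did not overlap, but the call ended without any one of the 4 female libraries (adjusted p from 0.139 to 0.169). It also ended in 5 other alternatives, with an adjusted p of 0.387 at a pseudocount of 0.1, 0.0961 with all 12 livers in the fit, 0.0713 with no filter, 0.0590 with the replicate block, and 1 after quantile normalisation, which gives the top transcript of each library the same value. In males it stood at 0.0753 and 0.327 TPM under alcohol and 23.3 and 21.6 TPM after withdrawal, a level still far below the female one. The strongest rise among the 10 was from 5311 and 5557 TPM to 25063 and 24545 TPM (log2 difference 2.19, SE 0.11, adjusted p = 6.31e-05). The strongest fall was from 9822 and 10569.7 TPM to 782 and 888 TPM (log2 difference −3.61, SE 0.39, adjusted p = 0.00155), and these withdrawal levels lay below the 9149 and 31441 TPM of the control females. A male counterpart set held 9 transcripts, of which 7 reached 100 TPM after withdrawal only, so no count of its directions is given.

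Withdrawal livers mostly did not lie nearer to controls than alcohol livers did. The control livers took no part in the fits above, but the calls and the distances share the alcohol and withdrawal libraries, and both distances share the controls, so the values are a description. The median absolute log2 distance from the control mean of the same sex was 0.64 for alcohol and 0.85 for withdrawal males, and 0.34 and 0.49 for females. Of the 8379 transcripts called in males, 30.3% lay nearer to the male controls after withdrawal than under alcohol, against 37.1% of all tested transcripts. Of the 6026 called in females the share was 30.7%, against 37.9% of all. Without rescaling the 2 shares of called transcripts were 31.7% and 27.4%, and the shares of all transcripts were not taken.

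For males, the control mean lay at or beyond the alcohol mean for 51.5% of the called transcripts, so that the withdrawal level was the farther one, between the 2 means for 32.3%, and at or beyond the withdrawal mean for 16.2%. For females the shares were 35.2%, 53.5% and 11.4%. The control mean lay at or beyond the withdrawal mean for 22.5% of the male falls, 11.0% of the male rises, 11.6% of the female falls and 11.1% of the female rises. Differences between these shares were not tested. The positions were counted for called transcripts only, so they do not show whether called transcripts differ from the rest. The 2 male control libraries gave lower scale factors (0.64 and 0.77) than the 8 libraries compared (0.899 to 1.102). The female controls had factors of 0.69 and 0.88.

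**Figure D5:**
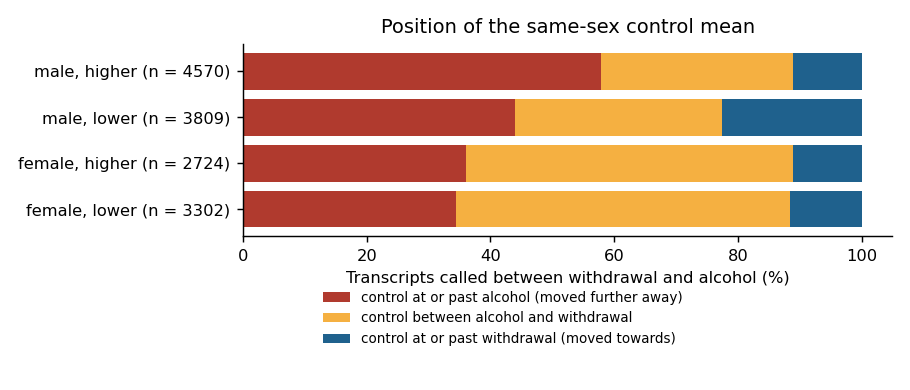
For transcripts called between withdrawal and alcohol in males and in females, split by direction, the percentage whose same-sex control mean lay at or past the alcohol mean (red), between the 2 means (yellow) or at or past the withdrawal mean (blue). The blue part is 11.0% to 22.5% in the 4 bars.

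Female and male livers differed less under alcohol than after withdrawal in median size, with no test made. The median absolute log2 difference between females and males was 0.68 in controls, 0.46 under alcohol and 0.57 after withdrawal. A difference of at least 2-fold was seen for 34.1% of the transcripts in controls, 19.5% under alcohol and 27.6% after withdrawal. Among those, females were higher for 2163 and males for 1698 under alcohol, and females for 2317 and males for 3157 after withdrawal. These sizes and counts were taken with a single scaling. The balance of the sexes in the withdrawal effect turned with the scaling, as given above, so the order of these counts may turn too.

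Liver calls were also called in the brain about as often as all transcripts tested in both tissues. The same contrast in 4 alcohol and 5 withdrawal brains called 34.8% of 36096 transcripts. Of the 18113 transcripts tested in both tissues, 43.6% were called in the brain, and of the 2738 liver calls among them 46.2% were. These 1264 shared calls made up 16.0% of the brain calls. They had the same direction for 707 and opposite directions for 557. Among transcripts tested in both tissues, 68% of all brain calls and 51.7% of all liver calls were higher. Agreement in direction beyond these shares was not tested. The median brain difference was 0.04 for transcripts that rose in the liver, −0.05 for those that fell and 0.04 for all 18113. The brain directions depended on the scaling. With a median brain difference of −1.04 without rescaling, against −0.11 with it over the 36096 transcripts, the brain calls were 2650 higher and 24140 lower, of which 1025 had the direction of the liver call and 1085 the opposite one. The largest liver rise, ENSDART00000129772.2, reached at most 1.65 TPM in these 9 brains.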

How the data were processed

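Zebrafish liver RNA was sequenced from non-stranded libraries, according to the labels' protocols. The submitters' processing notes name FastQC 0.11.7, STAR 2.5.2, RSEM 1.3.1 and the danRer10 build, and the design text says that STAR mapped the reads and RSEM estimated transcript abundance. No annotation is named there. The authors deposited TPM per Ensembl transcript, rounded to 2 decimals and summing to about 1000000 in each library, so read depth is unknown and no interval that needs counts is given. Tissue was pooled within groups.

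Each library was rescaled by a factor, the median over 20143 transcripts above 0 in all 8 libraries of its ratio to their geometric mean, and control livers were scaled to the same reference. Levels of single transcripts are rescaled TPM, and shares of TPM use the deposited values. Values were tested as log2(TPM + 1), which understates changes of low transcripts, with limma 3.58.1 in R 4.3.3 and a moderated variance trend. The main fit had terms for sex and condition. Effects within a sex and their difference came from a fit of 4 group means. Calls had a Benjamini-Hochberg adjusted p below 0.05 over all 19828 transcripts, of which 51 shared all 8 values with another transcript. Figures used Python 3.11.15 with matplotlib 3.10.9. The procedure was tested on simulated data with normal noise. There the sex-adjusted fit met no effects that differed between the sexes, unlike in these livers.

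Named transcripts were the 2 largest log2 differences in each direction among calls with a mean of at least 10 TPM and no overlap of conditions within either sex. Others are described by rank in that order, by the largest difference between sexes, by abundance, or as examples chosen after their values were seen. The members, lists and tests were chosen with earlier results of these data known. Alternatives covered the scaling, pseudocount, filter, variance trend, samples in the fit, pairs averaged, a replicate block and each library left out. Lists of pathway genes and cell markers could not be counted without a map from transcripts to genes.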

Additional observations from a re-analysis of the deposited data

Results flagged for a closer look

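The effect of withdrawal on the liver differed between females and males for 7180 transcripts (36.2%) by a limma test of the difference itself. Of the transcripts called in both sexes, 922 had opposite directions and 1736 the same direction. The parts of both kinds in the called differences are given above.

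Of the 4 named transcripts, the one with the largest fall differed between the sexes (adjusted p = 0.0201), and its fall was larger in males. The 3 largest differences in favour of females with a mean of at least 10 TPM had adjusted p-values of 0.0147, 0.00507 and 0.00701. The call of the first ended without female alcohol replicate 2 (adjusted p = 0.0595), male withdrawal replicate 1 or 2 (0.0559 and 0.05002) or female withdrawal replicate 2 (0.0518). It was at 2.70 and 94.7 TPM in alcohol males and 0.300 and 0 TPM in withdrawal males, against 7.12 and 0 TPM in alcohol females and 253 and 307 TPM in withdrawal females. The third was at 2158 and 624 TPM in alcohol males and 575 and 367 TPM in withdrawal males, against 0.243 and 8.75 TPM in alcohol females and 514 and 517 TPM in withdrawal females. The 3 largest differences in favour of males had adjusted p-values of 0.000359, 0.000192 and 0.000356. The second of these was listed at 0 in alcohol males and in withdrawal females, and stood at 183 and 88.5 TPM in withdrawal males and at 7.15 and 15.3 TPM in alcohol females.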

How the results depend on the processing

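Depth is unknown and each group held 2 pooled libraries, so precision rests on the spread between replicates. In the sex-adjusted fit it rests also on effects that differ between the sexes. The 2951 sex-adjusted calls were 1546 with no filter on low values, 8556 with all 12 livers in the fit, 8810 with group means averaged, and 0 with the 2 libraries of each group averaged, which leaves 1 residual degree of freedom (limma, 1217 transcripts at an unadjusted p under 0.05). With only transcripts at 5 TPM or more, which leaves fewer to test, the counts were 5294 in males, 3758 in females and 4502 for the difference between sexes. Male calls were 2555 with males alone in the fit. Within-sex effects could not be tested with pairs averaged.

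Leaving out single libraries gave 1062 to 2620 sex-adjusted calls, 4664 to 9111 in males, 2412 to 7610 in females and 3559 to 8301 for the difference between sexes, where the lone library of a group is assumed to vary like the others. The lowest counts came without female alcohol replicate 1 (sex-adjusted), male withdrawal replicate 1 (males) and female alcohol replicate 2 (females and the difference). Calls in both sexes ranged from 596 to 2689 in the same direction and from 249 to 1275 in opposite directions.

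With the replicate number as a block the sex-adjusted calls were 1657. Same-numbered libraries of the groups had deviations correlated between −0.03 and 0.10. Whether same-numbered libraries shared a preparation was not tested. With the block, the counts within the sexes and for their difference stayed within 1.5 times.

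The class below 5 TPM moved from a median of −0.02 to 0.00198 with quantile normalisation and 0.00855 with factors from all 12 livers, and ranged from −0.0296 to −0.0132 without single libraries. Transcripts listed at 0 under alcohol in both sexes numbered 4 at a minimum of 1 TPM and 0 to 2 without single libraries. Those listed at 0 after withdrawal numbered 11 at 1 TPM, 0 at 20 TPM, and 2 to 3. Within males gains were 275 and 13 at these minima and 88 to 167 without single libraries, and losses 174, 7 and 43 to 80. Within females gains were 72, 1 and 19 to 24, and losses 287, 10 and 67 to 101. Leaving out a library loosens the rule for these counts, so they could only stay or rise. The share nearer to control moved to 31.7% in males and 27.4% in females without rescaling, and to 30.1% in females with 12-liver factors. Brain calls were 26790 without rescaling. The tenth most abundant female-limited transcript, not called, had a log2 difference of −0.0066 without female alcohol replicate 1 and −0.091 without female withdrawal replicate 1, and ranged from −0.0913 to 0.217 without single libraries. The largest rise and both named falls lost their calls in 1 alternative of 20 each, pairs averaged.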
